A study of Mus musculus with 49 samples.

Results

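The 4 genes described here supply peptides to MHC class I and complete its surface form: Tap1 (1 chain of the peptide transporter), Psmb8 and Psmb9 (2 catalytic subunits of the immunoproteasome) and B2m (β2-microglobulin, the invariant light chain of class I). They were chosen by name, as the probe sets annotated to 1 of these genes alone, with earlier results of these data known. Each gene had 1 such probe set on either array version, so that 4 of the 9977 probe sets on U74Av2 arrays (8724 of which matched 1 gene alone) and 4 of the 12588 on U74A arrays were followed.

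MHC class I molecules show the cell surface a sample of the peptides made inside the cell. Proteasomes cut proteins into peptides, the transporter associated with antigen processing carries the peptides into the endoplasmic reticulum, and the class I heavy chain is loaded there together with β2-microglobulin. In the immunoproteasome, which lymphoid cells hold at rest and which interferon increases in most cell types, the inducible subunits encoded by Psmb8, Psmb9 and Psmb10 take the places of the constitutive subunits encoded by Psmb5, Psmb6 and Psmb7.

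Mouse B lineage cells in which signals from the B cell receptor (BCR) were lost, blocked or raised were compared by Affymetrix array, a probe set being the group of probes that reports 1 transcript. There were 49 arrays in 14 groups: 37 U74Av2 arrays in 10 of them and 12 U74A arrays in 4. Mice were generally 4 to 8 weeks old, and each array held RNA of 1 sorted population.

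Most groups began as bone marrow expanded for 5 days with 16 ng/ml IL-7. In 3 of them the cells came from mice with 1 copy each of a knock-in heavy chain and a knock-in light chain allele, B1-8h/3-83(kappa) in the labels, with the heavy chain flanked by loxP sites, and all 3 were recultured for 2 days without IL-7 and with 1000 units/ml IFNαβ. Cre-Mlo cells (n = 4, IgM low) and Cre-Mhi cells (n = 4, IgM high) also carried Mx-Cre, a Cre transgene under an interferon-inducible promoter, whereas Ctrl-Mhi cells (n = 4, IgM high) did not. B6-M- cells (n = 3) were B220+ IgM-negative cells of C57BL/6 marrow from the IL-7 culture. GFPpos cells (n = 3, IgM+ GFP+) and GFPneg cells (n = 3, IgM+ GFP-negative) came from marrow with 2 transgenes, an anti-HEL immunoglobulin and Rag-2-GFP, in which GFP reports Rag2, after 1 further day without IL-7, with herbimycin A for GFPpos and without it for GFPneg. Herbimycin A is an inhibitor of tyrosine kinases, used at 400 ng/ml for GFPpos cells, with no dose stated for the FxE HA cells described next. FxE HA cells (n = 6) and FxE Ctrl cells (n = 4) were immature B cells (B220+ IgM+ IgD-negative) sorted from Bcl-2 transgenic marrow and then cultured with or without herbimycin A for 24 or 48 h, and FxD (pre-B cells, B220+ CD43-negative IgM-negative, n = 3) and FxE (immature B cells, n = 3) were sorted from Balb/c marrow and not cultured. On U74A arrays, HEL 48h cells (n = 3, IgM high GFP+) and BM 48h Ctrl cells (n = 3, IgM high GFP-negative) were HEL-Ig/Rag2-GFP cells kept for 48 h without IL-7, with or without 1 µg/ml of the antigen HEL. HEL-Mhi cells (n = 3, IgM high) came from the IL-7 culture of anti-HEL immunoglobulin marrow, and HEL-Mlo cells (n = 3, IgM low) from HEL-Ig marrow. Only the Cre-Mlo, Cre-Mhi and Ctrl-Mhi cultures held IFN.

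Median signals were 345.9 to 544 units over the U74Av2 arrays and 512.3 to 596.5 units over the U74A arrays other than HEL-Mlo, whose medians were 21.6 to 26.2 units. The B cell markers measured on U74Av2 arrays (Cd79a, Pax5, Blnk, Ptprc and Cd74) were above the floor of 20 units in every group, while transcripts of other lineages were high in the 4 groups sorted without prior IL-7 culture. The summed signal of 10 myeloid markers was 28607 to 275532 units in FxD, FxE, FxE Ctrl and FxE HA arrays and at most 4278 units in the other U74Av2 groups, and that of 3 erythroid markers was 56975 to 157354 units in FxD and FxE arrays and at most 10168 units elsewhere. In bulk samples, fewer cells of a type and less RNA per cell cannot be told apart.

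Tap1, Psmb8 and Psmb9 lie side by side in the class II region of the MHC on chromosome 17, in the order H2-DMb1, Psmb9, Tap1, Psmb8, Tap2, and B2m lies on chromosome 2 between Patl2 and Trim69. Psmb9 and Tap1 are read in opposite directions with 225 bases between their starts, so that they share 1 stretch of promoter, shown here because both were measured in every sample. The sequences are those of RefSeq (mouse GRCm38.p6), in which all 4 genes were found. Capitals mark matches, on either strand, to 3 motifs, whose matches did not overlap: the core bound by interferon regulatory factors (AANNGAAA), a gamma-activated site (TTCNNNGAA) and a GC box (GGGCGG). The stretch between both starts is chr17:34187331-34187555, the Psmb8 stretch is the 250 bases before its start (chr17:34197945-34198194), and the B2m stretch is the 250 bases before its start (chr2:122147437-122147686), each on the plus strand.
Psmb9 and Tap1: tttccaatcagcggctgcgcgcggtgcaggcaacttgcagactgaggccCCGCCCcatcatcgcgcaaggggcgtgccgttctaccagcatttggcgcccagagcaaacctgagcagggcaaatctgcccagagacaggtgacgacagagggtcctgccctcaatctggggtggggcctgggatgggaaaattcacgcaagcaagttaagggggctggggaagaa
Psmb8: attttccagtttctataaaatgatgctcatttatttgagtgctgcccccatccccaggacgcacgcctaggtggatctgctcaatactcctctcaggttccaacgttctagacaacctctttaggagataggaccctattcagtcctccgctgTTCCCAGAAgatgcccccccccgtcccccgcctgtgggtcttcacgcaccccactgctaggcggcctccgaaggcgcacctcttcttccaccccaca
B2m: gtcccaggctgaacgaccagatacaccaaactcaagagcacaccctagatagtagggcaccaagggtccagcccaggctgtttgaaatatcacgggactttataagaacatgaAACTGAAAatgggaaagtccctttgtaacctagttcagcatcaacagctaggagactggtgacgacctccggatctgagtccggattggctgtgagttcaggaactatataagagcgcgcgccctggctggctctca
The B2m stretch held an interferon regulatory factor core 130 to 137 bases before the start. The Psmb8 stretch held a gamma-activated site 89 to 97 bases before the start. Between Psmb9 and Tap1 there was 1 GC box on the opposite strand and no match to the other motifs. Among 32817 promoter windows of 250 bases, 21.3% held the interferon regulatory factor core, 7.01% the gamma-activated site and 32.7% the GC box. A match is a run of letters and not a measured binding site, and its absence says nothing about the factor.

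All 4 genes gave strong signals in every group, but they did not vary to the same degree. Over the 10 U74Av2 groups the highest group mean was 7.76 times the lowest for Tap1, 5.26 times for Psmb9, 3.57 times for Psmb8 and 2.43 times for B2m. On the log2 scale the group means of Tap1 spanned 3.03, more than 81.8% of the 1619 probe sets with a group mean of at least 5000 units, which had a median span of 1.63. The span was 2.46 for Psmb9, 1.83 for Psmb8 and 1.26 for B2m, the last wider than only 34.1% of those probe sets.

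**Figure D1:**
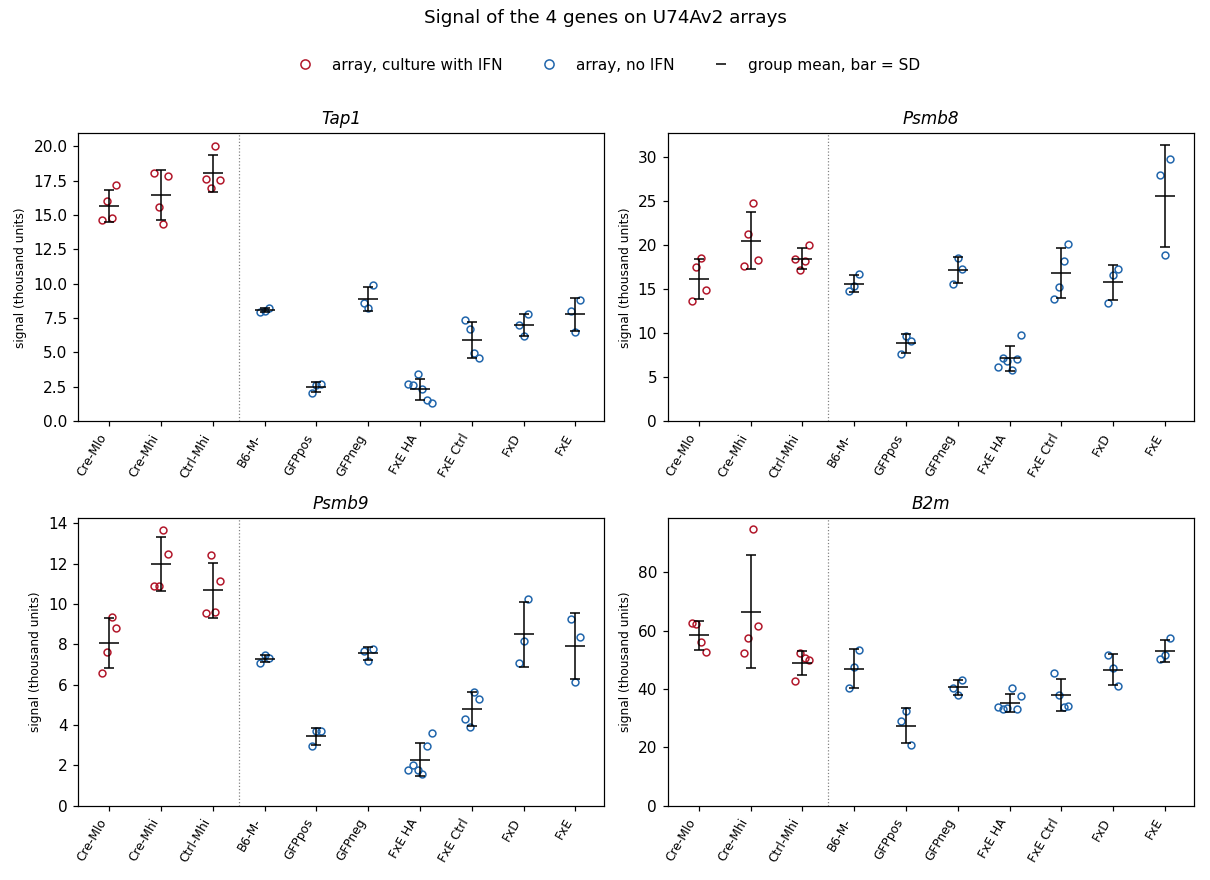
Signal (units divided by 1000, linear axis from 0) of Tap1, Psmb8, Psmb9 and B2m on each U74Av2 array, with groups along the x axis. Points are arrays, red for cultures with IFN and blue for all others, and bars give the group mean and SD (n = 3 to 6). All 12 IFN arrays sit above all 25 others for Tap1 alone, and GFPpos and FxE HA have the 2 lowest means for Tap1, Psmb8 and Psmb9.

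The order of the Tap1 means fell into 3 blocks. Ctrl-Mhi (18040 ± 1342 units, SD), Cre-Mhi (16462 ± 1803) and Cre-Mlo (15654 ± 1189), the IFN cultures, were highest, and each overlapped the next. A middle block followed without overlap, in the order GFPneg (8911 ± 880), B6-M- (8076 ± 148), FxE (7777 ± 1190), FxD (7009 ± 798) and FxE Ctrl (5909 ± 1324), each of which overlapped its neighbours in that order. GFPpos (2479 ± 379) and FxE HA (2323 ± 778), the herbimycin A cultures, were below all others and overlapped each other.

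The order differed for the other genes, although the herbimycin A cultures stood at the bottom of all 4. RNA of FxD and FxE went through 2 rounds of amplification, stated for no other group, and its part in these orders was not tested. Psmb8 was highest in FxE (25588 ± 5839 units) and then changed by steps that overlapped down to B6-M- (15628 ± 993), below which GFPpos (8854 ± 1058) and FxE HA (7164 ± 1409) were separated by a gap. Psmb9 was highest in Cre-Mhi (11986 ± 1345) and Ctrl-Mhi (10677 ± 1366), stood at 7294 to 8499 units in FxD, Cre-Mlo, FxE, GFPneg and B6-M-, and was lower without overlap in FxE Ctrl (4782 ± 829) and again in GFPpos (3442 ± 421) and FxE HA (2277 ± 821). B2m ran from Cre-Mhi (66545 ± 19300) through Cre-Mlo, FxE, Ctrl-Mhi, B6-M-, FxD, GFPneg and FxE Ctrl to FxE HA (35210 ± 3043) with every neighbour overlapping, and only the last step, to GFPpos (27418 ± 6094), was a gap.

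Among U74Av2 arrays, cultures with and without IFN were separated by Tap1 alone. The 12 IFN arrays held 14353 to 20001 units of Tap1 (median 17065), against 1346 to 9906 units (median 6480) on the 25 other U74Av2 arrays. For Psmb8 the range was 13709 to 24830 units with IFN, against 5821 to 29827 units without it. For Psmb9 it was 6554 to 13660 units with IFN, against 1549 to 10242 units without it, and for B2m 42794 to 94920 units, against 20686 to 57478 units. Of the 4 genes, all but Tap1 therefore overlapped between the kinds of culture, which also differ in genotype, time and sort. Genes outside the 4 separated as well. The class I heavy chain H2-K1 was at least 86123 units with IFN and at most 80967 units without it. The interferon-stimulated gene Mx1 was at least 2487 units and at most 626 units. The share of all probe sets that separate in this way was not counted. The separation by Tap1 did not extend to U74A arrays. There 2 of the 3 BM 48h Ctrl arrays, kept for 48 h without IFN, held 15443 and 15192 units of Tap1 and the other 10576 units, though the scaling of these arrays is not stated.

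The closest comparison of IFN cultures with others among IgM-bearing cells was Ctrl-Mhi against GFPneg, in which receptor, time of culture and GFP sort differ as well. Tap1 was 17634, 16957, 20001 and 17566 units in Ctrl-Mhi, against 8596, 8233 and 9906 units in GFPneg. Every Ctrl-Mhi array was above every GFPneg array, and Tap1 rose 2.03-fold (log2 difference 1.02, SE 0.13, 95% interval 0.70 to 1.34, limma adjusted p = 0.0133). Psmb9 was 9552, 12413, 9618 and 11125 units in Ctrl-Mhi, against 7685, 7182 and 7793 units in GFPneg. Its groups did not overlap either, but the log2 difference of 0.49 (SE 0.15) did not pass (adjusted p = 0.137).

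Psmb8 and B2m overlapped between Ctrl-Mhi and GFPneg. Psmb8 was 18478, 17134, 18163 and 20006 units in Ctrl-Mhi, against 15593, 18542 and 17296 units in GFPneg (log2 difference 0.11, 95% interval -0.20 to 0.42, adjusted p = 0.717). B2m was 42794, 52184, 50579 and 49857 units in Ctrl-Mhi, against 40363, 38042 and 43137 units in GFPneg (log2 difference 0.27, 95% interval -0.05 to 0.58, adjusted p = 0.347). Thus 1 of the 4 genes was called, where 3.53% of all probe sets were. Tap1 and Psmb9 did not overlap, as did 20% of all probe sets. Leaving out GFPneg replicate 1 (adjusted p = 0.0561) or replicate 2 (adjusted p = 0.0597) ended the Tap1 call, with log2 differences of 1.00 and 0.96.

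The rest of the class I pathway was read from a list of 32 genes, of which 19 had a probe set of their own on U74Av2 arrays. In Ctrl-Mhi against GFPneg, 6 of the 19 rose and none fell, with a median log2 difference of 0.31 against 0.04 over all probe sets. These were Tapbp (tapasin, which bridges transporter and class I), the heavy chains H2-K1 and H2-D1, H2-Q4, H2-T24 and Irf1, a transcription factor of interferon responses. Tapbp averaged 15601 units in Ctrl-Mhi and 7974 units in GFPneg (log2 difference 0.97, adjusted p = 0.0349), H2-K1 99300 and 45809 units (1.11, adjusted p = 0.0129), and Irf1 4154 and 1760 units (1.24, adjusted p = 0.0059). Tap2, the partner chain of Tap1, differed by 0.31 (adjusted p = 0.385), Psmb10 by 0.22 (0.419), and the constitutive subunits Psmb5, Psmb6 and Psmb7 by -0.12, -0.51 and -0.10, none of which passed. Probe sets of the H2 heavy chains can bind transcripts of near-identical class I genes, so values for 1 heavy chain are uncertain. On U74A arrays, BM 48h Ctrl cells without IFN averaged 16525 units of Tapbp, 96574 of H2-K1, 82425 of H2-D1, 39245 of H2-Q4 and 6523 of Irf1 (3130 to 13056 by array), each mean within or above the range of Ctrl-Mhi, and 939 units of H2-T24, below it. For scale, 14 of 17 interferon-stimulated genes measured rose in the same comparison, with a median log2 difference of 2.57.

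Between receptor-low cells and controls of the IFN cultures no difference of the 4 genes passed. In Cre-Mlo against Ctrl-Mhi, Tap1 was 14662, 16027, 14756 and 17173 units in Cre-Mlo, against the Ctrl-Mhi values above, and the groups overlapped by 1 Cre-Mlo array above the lowest Ctrl-Mhi array (log2 difference -0.20, 95% interval -0.47 to 0.06, adjusted p = 0.377). Psmb8 was 13709, 17508, 18581 and 14865 units in Cre-Mlo, with overlap (-0.20, 95% interval -0.52 to 0.12, adjusted p = 0.502). Psmb9 was 6554, 7632, 9340 and 8795 units, all below the lowest Ctrl-Mhi array, and did not pass (-0.41, 95% interval -0.74 to -0.07, adjusted p = 0.14). B2m was 62675, 62147, 56156 and 52524 units, all above the highest Ctrl-Mhi array, and did not pass either (0.26, 95% interval -0.14 to 0.65, adjusted p = 0.474). None of the 4 was called by limma (1, Psmb9, at an unadjusted p under 0.05), where 8.33% of all probe sets were, and 2 of them did not overlap, as did 16.6% of all probe sets.

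Cre-Mhi cells, the IgM high sort of the Mx-Cre cultures, gave no call against Ctrl-Mhi either. Tap1 was 18065, 15574, 14353 and 17855 units in Cre-Mhi, Psmb8 was 17617, 21281, 24830 and 18379 units, and Psmb9 was 10904, 10890, 13660 and 12491 units. B2m was 52176, 57544, 94920 and 61538 units, of which replicate 3 stood highest of all U74Av2 arrays. All 4 overlapped Ctrl-Mhi, with log2 differences of -0.14, 0.14, 0.17 and 0.41 in that order and adjusted p of 0.85, 0.876, 0.853 and 0.684, and none was called (1, B2m, at an unadjusted p under 0.05), where 0.0200% of all probe sets were. These comparisons share the Ctrl-Mhi arrays, as those of Cre-Mlo with Cre-Mhi share the Cre arrays.

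Between the 2 sorts of the Mx-Cre cultures, Psmb9 alone passed. Psmb9 averaged 8080 ± 1242 units in Cre-Mlo and 11986 ± 1345 units in Cre-Mhi (SD, n = 4 each), without overlap, a log2 difference of -0.58 (SE 0.15, 95% interval -0.91 to -0.24, adjusted p = 0.0493). Same-numbered arrays deviated together, and within the 4 pairs Psmb9 was lower in Cre-Mlo in 4 of 4, by log2 differences of -0.73 to -0.51. Psmb8 was also lower in 4 of 4 pairs (-0.42 to -0.28), but its groups overlapped and its difference of -0.34 (SE 0.15) did not pass (adjusted p = 0.251). The share of all probe sets lower in 4 of 4 pairs was not counted. Tap1 (-0.07, adjusted p = 0.839) and B2m (-0.15, adjusted p = 0.742) were lower in 2 of 4 pairs each and higher in the other 2. So 1 of the 4 was called, where 6.08% of all probe sets were, and Psmb9 alone did not overlap, as did 13.8% of all probe sets. The Psmb9 call rested on a margin: it was lost with the pairs as a block (adjusted p = 0.0738) and without any 1 of the 12 arrays of the fit (adjusted p 0.0517 to 0.136), while the log2 difference stayed between -0.65 and -0.48.

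No gene of the pathway list passed in any of these 3 comparisons within the IFN cultures (0 of 19 each), the medians being 0.06 in Cre-Mlo against Ctrl-Mhi, 0.16 in Cre-Mhi against Ctrl-Mhi and -0.15 in Cre-Mlo against Cre-Mhi, against -0.04, -0.01 and -0.03 over all probe sets. The heavy chain H2-K1 averaged 108338 units in Cre-Mlo and 99300 units in Ctrl-Mhi (0.13, adjusted p = 0.665). The constitutive subunits Psmb5 (0.31), Psmb6 (0.40) and Psmb7 (0.06) did not pass in Cre-Mlo against Ctrl-Mhi, the first without overlap. Of the interferon-stimulated genes, none of 17 passed in Cre-Mlo against Ctrl-Mhi, and 2 of 17 fell in Cre-Mlo against Cre-Mhi, Ifit2 (-1.39, adjusted p = 0.023) and Mx1 (-0.98, adjusted p = 0.0135). The part of the unequal interferon-stimulated transcripts in the Psmb9 difference was not tested.

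IgM-negative cells of IL-7 cultures and IgM-bearing cells kept 1 day without IL-7 overlapped in all 4 genes. The groups also differed in transgenes, reculture and GFP sort, which cannot be told apart from IgM here. In B6-M-, Tap1 was 7968, 8016 and 8244 units, Psmb8 was 14794, 15366 and 16726 units, Psmb9 was 7088, 7464 and 7330 units and B2m was 40187, 47500 and 53323 units. All 4 overlapped GFPneg, whose arrays also serve 2 other comparisons, and none of their log2 differences (-0.14, -0.13, -0.05 and 0.21 in that order) passed, with adjusted p of 0.642, 0.665, 0.873 and 0.552 and 0 at an unadjusted p under 0.05, where 5.04% of all probe sets were called. Their 95% intervals lay within -0.47 and 0.60. Of the pathway list, Irf1 rose (3199 units in B6-M- and 1760 units in GFPneg, 0.86, adjusted p = 0.0425), H2-T24 fell (280 and 698 units, -1.33, adjusted p = 0.0126) and 17 did not pass.

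**Figure D2:**
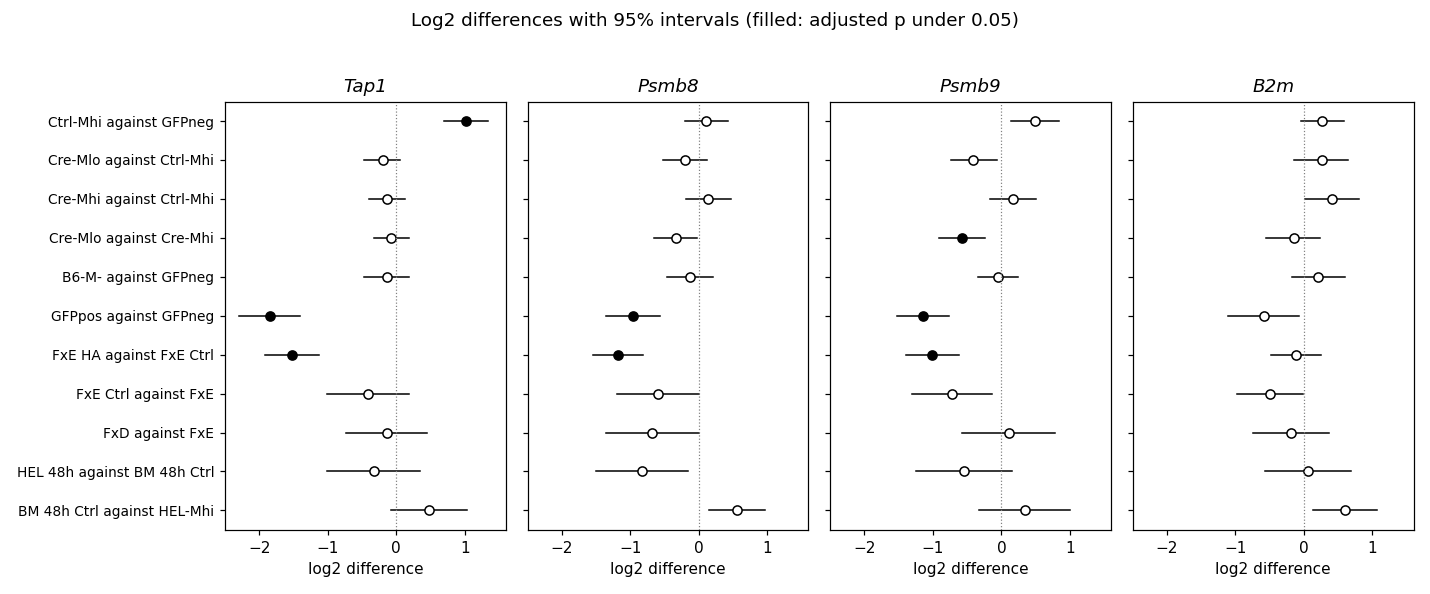
Log2 difference (x axis) of each gene in the 11 comparisons, with 95% confidence intervals from limma, the group named first minus the group named second. Filled points passed an adjusted p of 0.05, which were Tap1 in 3 comparisons, Psmb9 in 3 and Psmb8 in 2, and no B2m difference passed.

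The herbimycin A cultures held the lowest signals on U74Av2 arrays. GFPpos and GFPneg cells differed in the GFP sort as well as in herbimycin A, and the 2 cannot be told apart. In GFPpos, Tap1 was 2043, 2666 and 2727 units, against 8596, 8233 and 9906 units in GFPneg. Every GFPpos array was below every GFPneg array, and Tap1 fell 3.61-fold (log2 difference -1.85, SE 0.18, 95% interval -2.29 to -1.41, adjusted p = 0.023). Psmb8 was 7679, 9733 and 9149 units in GFPpos, against 15593, 18542 and 17296 units in GFPneg, and fell 1.94-fold without overlap (-0.96, SE 0.16, adjusted p = 0.0485). Psmb9 was 2956, 3677 and 3692 units in GFPpos, against 7685, 7182 and 7793 units in GFPneg, and fell 2.2-fold without overlap (-1.14, SE 0.15, adjusted p = 0.039).

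B2m was 29011, 32557 and 20686 units in GFPpos, against 40363, 38042 and 43137 units in GFPneg. All 3 GFPpos arrays were lower, but the spread among them was wide and the difference did not pass (-0.59, SE 0.21, 95% interval -1.11 to -0.07, adjusted p = 0.196). Thus 3 of the 4 genes fell, where 2.59% of all probe sets were called, and all 4 were without overlap, as were 29% of all probe sets. With 3 arrays a group these calls were fragile: without any 1 of the 6 arrays the Psmb8 and Psmb9 calls were lost, and Tap1 remained called only without GFPpos replicate 1, its log2 differences staying between -1.93 and -1.72. The summed signal of the B cell markers was 108606 to 143265 units in GFPpos and 176955 to 184845 units in GFPneg. Cd74 averaged 32637 units in GFPpos and 86198 units in GFPneg, Blnk 34441 and 14658 units, and the only 1 of the 5 markers that passed was higher in GFPpos. Their part in these differences was not tested.

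The immature B cells sorted straight from Bcl-2 transgenic marrow gave a second set of herbimycin A cultures. Tap1 was 1346, 2487 and 3408 units (lowest, median and highest of 6) in FxE HA, against 7336, 6720, 4962 and 4617 units in FxE Ctrl. No FxE HA array reached the lowest FxE Ctrl array, and with the hours of culture in the fit Tap1 fell 2.87-fold (log2 difference -1.52, SE 0.18, 95% interval -1.92 to -1.13, adjusted p = 0.00199). Psmb8 was 5821, 6970 and 9833 units in FxE HA, against 13912, 15234, 18194 and 20089 units in FxE Ctrl, and fell 2.26-fold without overlap (-1.18, SE 0.17, adjusted p = 0.00531). Psmb9 was 1549, 1899 and 3609 units in FxE HA, against 4304, 3875, 5638 and 5311 units in FxE Ctrl, and fell 2.01-fold without overlap (-1.01, SE 0.17, adjusted p = 0.013).

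B2m was 32989, 33617 and 40305 units in FxE HA, against 45549, 37891, 33666 and 34306 units in FxE Ctrl. The groups overlapped over most of their range, and the log2 difference was -0.12 (SE 0.16, 95% interval -0.48 to 0.25, adjusted p = 0.803). Again 3 of the 4 genes fell, where 3.37% of all probe sets were called, and 3 did not overlap, as did 5.84% of all probe sets. The Psmb9 call was lost without FxE Ctrl replicate 1 (adjusted p = 0.0688) or replicate 2 (0.0687), and those of Tap1 and Psmb8 held without any 1 array. Only 2 or 3 sorts are stated per group here, fewer than the arrays, so that some arrays may share a sort and the p-values may be too small.

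The separation was present at both times of culture. At 24 h, Tap1 averaged 2771 units in 4 FxE HA arrays and 7028 units in 2 FxE Ctrl arrays (log2 difference -1.35), and at 48 h 1428 and 4789 units in 2 arrays each (-1.75). Psmb8 differed by -1.16 at 24 h and -1.20 at 48 h, and Psmb9 by -1.21 and -0.74, without overlap at either time. The share of all probe sets without overlap at each time was not counted, and groups of 2 arrays separate easily. B2m differed by -0.25 at 24 h and 0.05 at 48 h, with overlap at both. Within either treatment the 48 h arrays held less Tap1 and more Psmb9 than all 24 h arrays of that treatment, a difference in hours that was not tested. Fitted alone, neither time gave a call (limma adjusted p from 0.0694 at 24 h for Tap1 to 0.992 at 48 h for B2m).

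**Figure D3:**
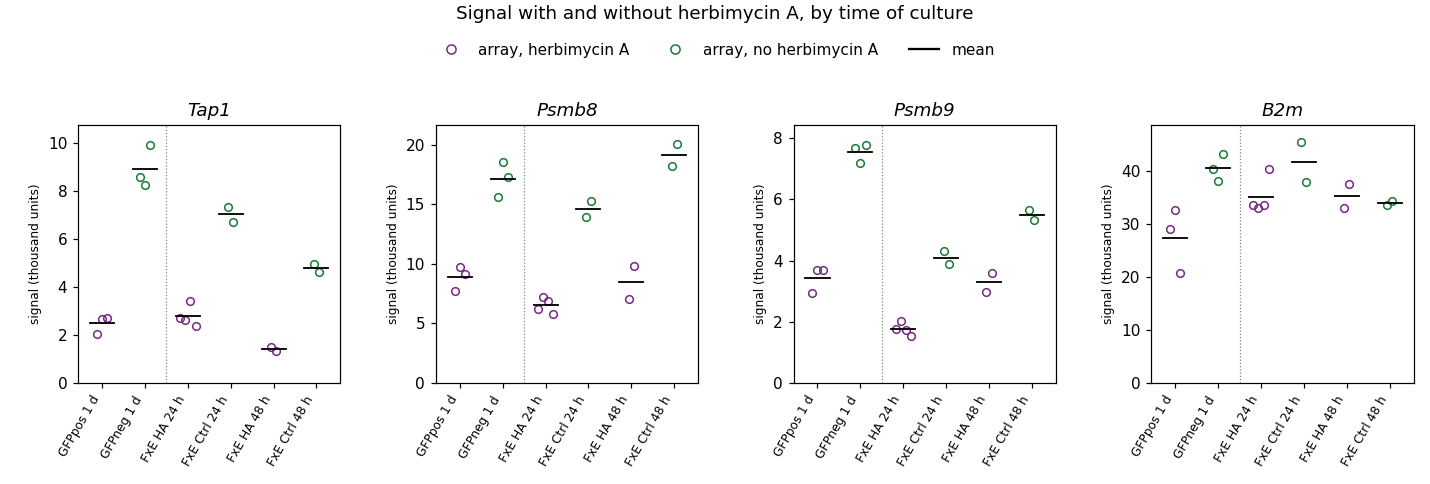
Signal (units divided by 1000, linear axis from 0) of each gene in the herbimycin A cultures (purple) and the cultures without it (green), by time of culture. Points are arrays (2 to 4 in each column) and lines are means. For Tap1, Psmb8 and Psmb9 the purple points lie below the green points at every time, and for B2m they overlap in the FxE cultures.

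The B cell markers differed in these cultures too. Their summed signal was 38491 to 60884 units in FxE HA and 85963 to 140849 units in FxE Ctrl. The widest gap was in Cd74, the class II invariant chain (7786 units in FxE HA and 72750 units in FxE Ctrl on average). In the same order, Ptprc averaged 1760 and 4193 units and Pax5 2019 and 2268 units, whereas Cd79a averaged 20570 and 18202 units and Blnk 17901 and 13965 units. Of the 5 markers, 2 passed as lower in FxE HA and 0 as higher. The myeloid sum was 28607 to 136266 units in FxE HA and 29879 to 128406 units in FxE Ctrl. Their part in the differences of the 4 genes was not tested.

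Beside the 4 genes, 1 gene of the pathway list fell in either herbimycin A comparison. In GFPpos against GFPneg 16 of 19 were lower and 1 passed, H2-T24 (186 units in GFPpos and 698 units in GFPneg, -1.92, adjusted p = 0.0185), with a median of -0.28 against -0.02 over all probe sets, of which 2.59% were called. In FxE HA against FxE Ctrl 11 of 19 were lower and 1 passed, H2-K1 (26865 units in FxE HA and 46760 units in FxE Ctrl, -1.06, adjusted p = 0.00638), with a median of -0.06 against 0.07 and 3.37% of all probe sets called. The heavy chains H2-K1 (-1.01, adjusted p = 0.187) and H2-D1 (-1.08, adjusted p = 0.168) did not pass in GFPpos, nor did H2-D1 in FxE HA (-0.77, adjusted p = 0.0632).

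Partners of the called genes did not pass. Tap2, next to Psmb8 on the chromosome, differed by -0.29 in GFPpos and -0.47 in FxE HA, Psmb10, the third inducible subunit, by -0.19 and -0.06, and Tapbp by -0.12 and -0.01. The constitutive subunits Psmb5, Psmb6 and Psmb7 differed by -0.10, 0.35 and 0.16 in GFPpos and by 0.30, 0.58 and 0.36 in FxE HA, and none passed. The interferon-stimulated genes had medians of -0.10 in GFPpos, with 0 of 17 called, and -0.28 in FxE HA, where Mx1 fell (-2.47, adjusted p = 0.013) and Ifit2 rose (3.52, adjusted p = 0.00391), both averaging under 30 units in 1 of the groups.

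**Figure D4:**
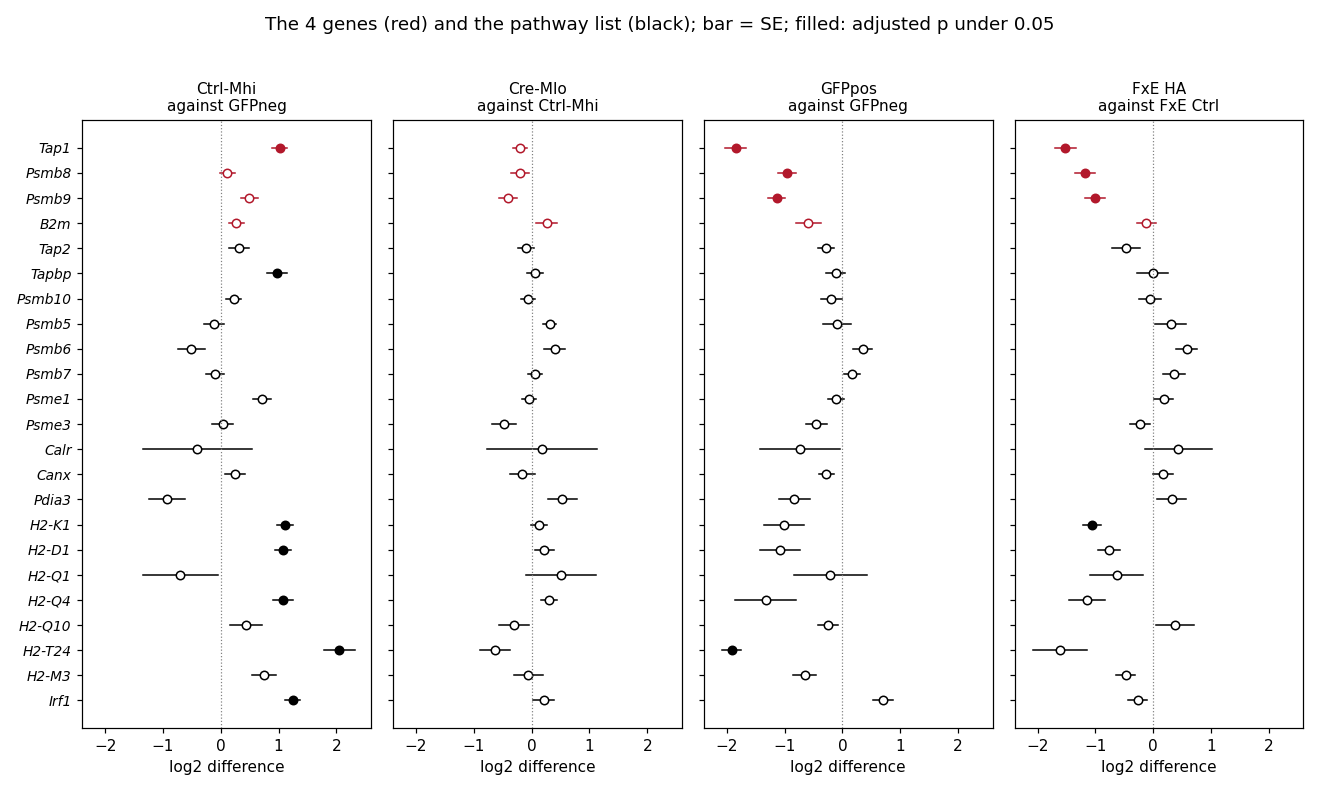
Log2 difference (x axis) of the 4 genes (red) and of the 19 measured genes of the pathway list (black) in 4 comparisons, the group named first minus the group named second, with bars of 1 SE. Filled points passed an adjusted p of 0.05: 6 of 19 list genes rose in Ctrl-Mhi against GFPneg, 0 passed in Cre-Mlo against Ctrl-Mhi, and 1 of 19 fell in either herbimycin A comparison.

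Whether receptor deletion and herbimycin A differ in effect was tested as a difference of log2 differences, (Cre-Mlo minus Ctrl-Mhi) minus (GFPpos minus GFPneg), over all 37 U74Av2 arrays. For Tap1 it was 1.65 (SE 0.32, 95% interval 0.99 to 2.30, adjusted p = 0.0066), and Tap1 was the only one of the 4 called, where 0.461% of all probe sets were. It was 0.76 for Psmb8 (95% interval 0.22 to 1.29, adjusted p = 0.267), 0.73 for Psmb9 (0.08 to 1.39, adjusted p = 0.503) and 0.84 for B2m (0.33 to 1.36, adjusted p = 0.175). The Cre-Mlo and Ctrl-Mhi cultures held IFN and the GFP cultures did not. The pairs also differed in receptor, time of culture and sort, and of these groups Cre-Mlo alone carried Mx-Cre. These and the kind of signal loss cannot be told apart here.

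The herbimycin A effects of the 2 cell sources were compared in the same way, as (FxE HA minus FxE Ctrl) minus (GFPpos minus GFPneg). The GFP pair also differed in the GFP sort, which the FxE cultures did not have, so drug and sort cannot be told apart there. The values were 0.46 for Tap1 (95% interval -0.17 to 1.09, adjusted p = 0.631), -0.28 for Psmb8 (-0.80 to 0.23, adjusted p = 0.749), 0.02 for Psmb9 (-0.61 to 0.64, adjusted p = 0.996) and 0.49 for B2m (-0.01 to 0.99, adjusted p = 0.427). None was called, where 1.92% of all probe sets were. The fit of all arrays held no term for the hours of culture, unlike the FxE differences given above.

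Fresh pre-B and immature B cells of normal marrow gave no call for the 4 genes. Psmb8 was 13491, 16594 and 17268 units in FxD, against 28010, 18928 and 29827 units in FxE, without overlap, and the log2 difference of -0.68 (SE 0.28, 95% interval -1.36 to 0.00) did not pass (adjusted p = 0.357). Tap1 was 7004, 6213 and 7808 units in FxD, against 8033, 6480 and 8819 units in FxE (-0.14, adjusted p = 0.871). Psmb9 was 7076, 8178 and 10242 units in FxD, against 9272, 6116 and 8367 units in FxE (0.11, adjusted p = 0.922). B2m was 51643, 47125 and 40961 units in FxD, against 50309, 51518 and 57478 units in FxE (-0.19, adjusted p = 0.799). The last 3 overlapped, and 0 of 4 were called (0 at an unadjusted p under 0.05), where 3.00% of all probe sets were. Psmb8 alone did not overlap, as did 20% of all probe sets. In the same comparison 0 of 19 pathway genes passed (median -0.29 against 0.04 over all probe sets).

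The stage difference was set against that of receptor deletion, as (FxD minus FxE) minus (Cre-Mlo minus Ctrl-Mhi). It was 0.06 for Tap1, -0.48 for Psmb8, 0.51 for Psmb9 and -0.45 for B2m, with 95% intervals of -0.59 to 0.71, -1.01 to 0.06, -0.14 to 1.17 and -0.97 to 0.06. The adjusted p were 0.968, 0.417, 0.5 and 0.431, and none was called, where 3.86% of all probe sets were.

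Cultured immature B cells gave lower values than fresh ones for all 4 genes, but none passed. In FxE Ctrl against FxE, which shares its FxE arrays with the comparison of stages, Psmb9 (-0.72, SE 0.25, adjusted p = 0.173) and B2m (-0.50, SE 0.20, adjusted p = 0.247) did not overlap, the values by array being those given above. Psmb8 (-0.59, SE 0.25, adjusted p = 0.265) and Tap1 (-0.41, SE 0.25, adjusted p = 0.443) overlapped. So 0 of 4 were called (2 at an unadjusted p under 0.05), where 3.22% of all probe sets were, and 2 of 4 did not overlap, as did 20% of all probe sets, whose median difference was 0.13. Of the pathway list only Psmb10 passed, falling to 7864 units in FxE Ctrl, against 17467 units in FxE (-1.14, adjusted p = 0.0393). Genotype, culture and RNA amplification cannot be told apart in this comparison, and the erythroid markers moved with it (3617 to 9020 units in FxE Ctrl and 115799 to 157354 units in FxE), a part that was not tested.

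On U74A arrays the antigen HEL was the treatment. HEL 48h cells were also the GFP+ sort and BM 48h Ctrl cells the GFP-negative sort, so antigen and sort cannot be told apart. Psmb8 was 10250, 15669 and 17470 units in HEL 48h, against 29296, 23774 and 22806 units in BM 48h Ctrl. Every HEL 48h array was lower, and the log2 difference of -0.83 (SE 0.28, 95% interval -1.50 to -0.16) did not pass (adjusted p = 0.338). Psmb9 was 6155, 6729 and 6057 units in HEL 48h, against 13413, 7669 and 7622 units in BM 48h Ctrl, also without overlap (-0.55, SE 0.28, adjusted p = 0.515). Tap1 was 12764, 11923 and 8182 units in HEL 48h, against 15443, 15192 and 10576 units in BM 48h Ctrl, with overlap (-0.33, SE 0.28, adjusted p = 0.662). B2m was 86520, 59939 and 59228 units in HEL 48h, against 78768, 56295 and 60627 units in BM 48h Ctrl, with overlap (0.06, SE 0.26, adjusted p = 0.934).

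None of the 4 was called (1, Psmb8, at an unadjusted p under 0.05), where 0.230% of all probe sets were, and 2 did not overlap, as did 20.5% of all probe sets. Same-numbered arrays of these groups deviated together, and within the 3 pairs Tap1 (-0.37 to -0.27), Psmb8 (-1.52 to -0.38) and Psmb9 (-1.12 to -0.19) were lower in HEL 48h in 3 of 3. The share of all probe sets lower in 3 of 3 pairs was not counted. The arrays were scanned on 2 days, 2 arrays of either group on the first and 1 on the second. Psmb8 differed by -1.06 on the first day and -0.38 on the second, Psmb9 by -0.66 and -0.33, Tap1 by -0.31 and -0.37, and B2m by 0.11 and -0.03. Of the pathway list, 0 of 20 passed (median -0.25 against -0.11 over all probe sets).

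**Figure D5:**
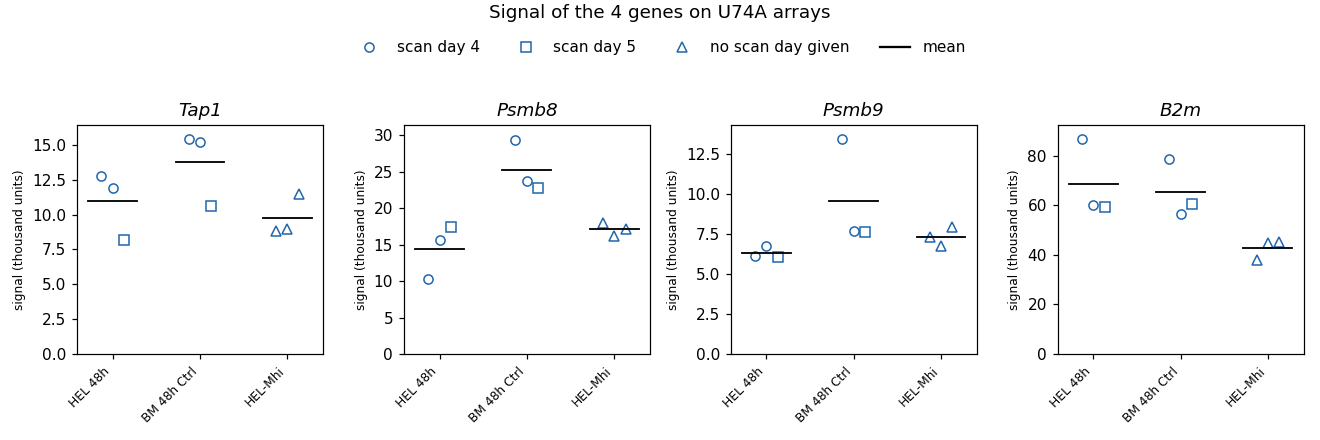
Signal (units divided by 1000, linear axis from 0) of the 4 genes on U74A arrays of HEL 48h, BM 48h Ctrl and HEL-Mhi cells. Points are arrays, with the shape giving the scan day as numbered over the dated arrays, and lines are means (n = 3 each). HEL 48h lies below BM 48h Ctrl without overlap for Psmb8 and Psmb9 and overlaps it for Tap1 and B2m.

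Cells kept for 48 h without antigen were also set against the end of the IL-7 culture. BM 48h Ctrl averaged 25292 ± 3501 units of Psmb8 and HEL-Mhi 17101 ± 916 units (log2 difference 0.56, adjusted p = 0.0764), and B2m averaged 65230 ± 11920 units in BM 48h Ctrl and 42698 ± 4024 units in HEL-Mhi (0.60, adjusted p = 0.0903), both without overlap. Tap1 averaged 13737 ± 2741 units in BM 48h Ctrl and 9754 ± 1494 units in HEL-Mhi (0.48, adjusted p = 0.185), and Psmb9 9568 ± 3330 and 7320 ± 599 units (0.34, adjusted p = 0.415), both with overlap (SD, n = 3). None was called (2 at an unadjusted p under 0.05), where 11.8% of all probe sets were. Psmb8 and B2m did not overlap, as did 41.6% of all probe sets. Without any 1 array, the probe sets called were 75 to 215 instead of 1176. The median of all probe sets was itself 0.40 higher in BM 48h Ctrl, and relative to it the differences were 0.16 for Psmb8, 0.20 for B2m, 0.08 for Tap1 and -0.06 for Psmb9. Of the pathway list 5 of 19 rose as deposited and 1 of 19 after each array was centred on its median.

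HEL-Mlo arrays were on a scale of their own, so only the place of a gene within its array was read. Over the probe sets present on all U74A arrays, Tap1 stood at the 89.9 to 92.7 percentile in HEL-Mlo, against 95.4 to 96.6 in HEL-Mhi, and Psmb8 at 97.3 to 97.6, against 97.9 to 98.0. Psmb9 stood at 90.0 to 93.8 in HEL-Mlo, against 93.7 to 94.5 in HEL-Mhi, and B2m at 98.8 to 99.1, against 99.0 to 99.3. Tap1 and Psmb8 were thus lower in rank in all 3 HEL-Mlo arrays, while Psmb9 and B2m overlapped. The share of all probe sets that separate in rank was not counted. Values at or below 20 units made up 44.7 to 48.7% of HEL-Mlo arrays, against 3.87 to 4.63% of HEL-Mhi arrays.

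The 4 genes did not follow 1 pattern over the samples. Across the 37 U74Av2 arrays Pearson's r of log2 signals was 0.89 between Psmb8 and Psmb9, 0.85 between Tap1 and Psmb9 and 0.76 between Tap1 and Psmb8, and lower with B2m (0.75 for Tap1, 0.69 for Psmb9 and 0.64 for Psmb8). Over the 25 arrays without IFN the values were 0.90, 0.79 and 0.81, and 0.66, 0.58 and 0.61 with B2m. Arrays of 1 group share their treatment, so these values describe the set and are not tests.

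Among 3473 genes with a span of at least 1 on the log2 scale between group means and a group mean of at least 500 units, those most like Tap1 were the class I genes H2-K1 (r = 0.93), H2-Q4 (0.91), H2-Q5 (0.90) and H2-T24 (0.89), and Pml (0.89). For Psmb8 they were Psmb9 (0.89), Ezr (0.89), BC147527, Cd72 and Smim14 (0.86 each). For Psmb9 they were BC147527 (0.90), Psmb8 (0.89), Ezr (0.88), Cd72 and Tram1 (0.87 each). For B2m they were the class I genes H2-D1 (0.81), H2-K2 (0.80), H2-K1 (0.79) and H2-M3 (0.78), and Usp18 (0.77). Tap1 and B2m thus stood nearest to class I heavy chains, and Psmb8 and Psmb9 to each other and to a common set of other genes.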

How the data were processed

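Sorted mouse B lineage cells were hybridised to Affymetrix U74Av2 (37 arrays) and U74A arrays (12). Per the labels and the study's methods, the authors calculated linear signal intensity values with Microarray Suite 5.0, applied a U74A mask and scaled each array to 1500 units. For the HEL 48h, BM 48h Ctrl and HEL-Mlo arrays neither target nor mask is stated. The authors set values of poor detection to 20. The deposited intensity tables used here hold no detection p, so only values under 20 were raised to 20. The methods give 4 independent sorts for the Cre groups and their controls and 2 or 3 for others, fewer than the arrays of FxE HA (6) and FxE Ctrl (4), some of which may share a sort. The labels do not say that every array came from other animals, so p-values measure the spread between arrays. A legend of the study gave the hours of each FxE culture.

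Log2 values were tested with limma 3.58.1 (lmFit, eBayes, two-sided, R 4.3.3) over all 9977 or 12588 probe sets with Benjamini-Hochberg adjustment, and called at an adjusted p under 0.05. There were 11 comparisons and 3 differences of effects. No filter on low values removed a member. The members, the pathway and interferon lists and the markers were chosen with earlier results of these data known. Genes named were the members, the list genes that passed, the partners and constitutive subunits of the members, and the 5 genes most correlated with each member. The 346 U74Av2 and 363 U74A probe sets that matched several genes named none. The fit was tested on simulated data. For GFPpos against GFPneg, 12% of probe sets given a log2 change of 1 and 86% of those given 2 were recovered, of 9977 tested, and for FxE HA against FxE Ctrl 24% and 88%. At a log2 change of 1, recovery was 0% for FxD against FxE, 4% for HEL 48h against BM 48h Ctrl and 6% for FxE Ctrl against FxE. It was 12% to 72% (Cre-Mlo against Cre-Mhi) in the others. A difference of that size could therefore be missed where no call was made. The number of arrays limits the precision.

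Replicate numbers paired the arrays of Cre-Mlo with Cre-Mhi (correlation of deviations 0.18 to 0.47 over 4 pairs) and of HEL 48h with BM 48h Ctrl (0.11 to 0.24 over 3), as judged from the data by a limit of 0.1, and of no other groups. Alternatives were another floor, a filter, quantile normalization, median centring, the methods' t-test, the replicate block, 1 fit of all arrays, the hours, scan day and leaving out each array. Pearson's r, promoter motifs and figures used Python 3.11.15.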

Additional observations from a re-analysis of the deposited data

Results flagged for a closer look

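The signal of Psmb8 in FxE HA replicate 6, 9833 units, stood apart from the other 5 arrays of its group, the next of which held 7180 units. Replicate 6 is 1 of the 2 arrays of 48 h culture. Over 20 sets of values, those of the 4 genes in the 5 groups of 4 or more arrays, this was the only such array, and chance passes a limit of this kind in about 1 of 20 sets.

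The effects on Tap1 of receptor deletion and of herbimycin A differed by a log2 value of 1.65 (adjusted p = 0.0066). Tap1 was lower in all 3 GFPpos arrays than in any GFPneg array, and Cre-Mlo overlapped Ctrl-Mhi. IFN was present in 1 pair of groups and absent from the other, and receptor, time of culture and sort differed as well. Their part was not tested.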

How the results depend on the processing

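Of the results for single genes, 490 of those without 1 array and 307 under other alternatives kept their direction and side of the threshold, most of them never called, while 33 and 27 lost a call, 13 and 2 turned direction, and 8 under other alternatives gained a call. The herbimycin A differences of Tap1, Psmb8 and Psmb9 and the Tap1 difference with IFN kept their direction under every alternative run, the calls less often. Median centring left 1 of the 3 members called in GFPpos against GFPneg (Tap1) and 0 in Cre-Mlo against Cre-Mhi, where quantile normalization (0) and the fit of all 37 arrays (0) also ended the Psmb9 call. The methods' t-test, adjusted, called 0 members in Cre-Mlo against Cre-Mhi, 0 in GFPpos against GFPneg and 0 in FxE HA against FxE Ctrl, and there the 24 h arrays alone gave 0 and the 48 h arrays alone, chosen after seeing the data, 0. At the methods' own limits of p, fold and difference, without adjustment, that t-test gave 1 member in Ctrl-Mhi against GFPneg (Tap1), 2 in GFPpos against GFPneg (Tap1 and Psmb9), 3 in FxE HA against FxE Ctrl and 0 elsewhere. A filter at a mean signal of 500 units gave 2 members in Ctrl-Mhi against GFPneg and 2 in BM 48h Ctrl against HEL-Mhi, where a floor of 100 units gave 1. The fit of all 37 arrays gave 2 in FxE Ctrl against FxE and 1 in FxD against FxE, and quantile normalization gave 2 in the difference between receptor deletion and herbimycin A, B2m being added (1.12). Leaving out 1 array at a time gave 0 to 1 members called in Ctrl-Mhi against GFPneg, 0 in Cre-Mlo against Cre-Mhi, 0 to 1 in GFPpos against GFPneg and 2 to 3 in FxE HA against FxE Ctrl.

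With the replicate number as a block, 0 members were called in Ctrl-Mhi against GFPneg, 0 in Cre-Mlo against Cre-Mhi (Psmb9 -0.58, adjusted p = 0.0738), 0 in GFPpos against GFPneg and 0 in FxE HA against FxE Ctrl, though only the Cre sorts and the 48 h cultures are paired by the data. For those unpaired groups the block took the probe sets called from 352 to 19, from 258 to 0 and from 336 to 0. It changed no other member's call.

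Direction turned only for small differences. B2m in Cre-Mlo against Cre-Mhi was 0.10 after quantile normalization and -0.26 to 0.03 without 1 array, B2m in FxE HA against FxE Ctrl was 0.05 at 48 h, Psmb9 in FxD against FxE was -0.07 to 0.23, B2m in HEL 48h against BM 48h Ctrl was -0.12 to 0.21, Psmb9 in the difference between herbimycin A effects was -0.13 to 0.11, and Tap1 in the difference between FxD and receptor deletion was -0.07 to 0.16, each without 1 array. The causes were not tested. Among all probe sets the counts called moved by more than 1.5 times in most comparisons, for example 0 to 1014 against 258 in GFPpos against GFPneg and 0 to 731 against 336 in FxE HA against FxE Ctrl. In BM 48h Ctrl against HEL-Mhi 77.2% of calls were higher as deposited, 26.2% after quantile normalization and 27.9% after median centring. A choice among several probe sets could not be run, since each member has 1, nor a scan day block for BM 48h Ctrl against HEL-Mhi, since HEL-Mhi has no scan day here.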
